A study of Homo sapiens with 17 samples.

Results

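The arrays described here carried RNA of NKYS cells that had received a control siRNA, 4 of the 17 arrays of the series. NKYS is an established line derived from a human NK/T-cell lymphoma. The cells were kept in RPMI medium with 10% FBS and 100 IU/mL of recombinant interleukin-2, and the siRNA was brought in by Neon electroporation, which all groups of the series share. Of the 4 control arrays, chosen by their transfection field, 2 are titled as controls of a JAK3 knockdown (the JAK3 arm) and 2 as controls of EZH2 siRNA (the EZH2 arm). The other 13 arrays, used here only as a range, had JAK3 siRNA (2), EZH2 siRNA (2), a full-length EZH2 plasmid titled WT, Y244D or Y244A (6), an EZH2 plasmid without the SET domain (1) or an empty vector (2). On some plasmid arrays the constructs given in title and transfection field differ, which does not touch the control arrays. Everything below is a level in 1 cell line, and the labels do not say whether the 4 arrays came from separate cultures.

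Natural killer cells are lymphocytes that kill infected or malignant cells without a rearranged antigen receptor. They carry activating and inhibitory surface receptors, store perforin and granzymes in granules, and depend on interleukin-2 or interleukin-15, whose shared receptor chains signal through the kinases JAK1 and JAK3 to STAT transcription factors. EZH2, the enzyme of Polycomb repressive complex 2, methylates histone H3 and is often abundant in dividing lymphoma cells.

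Each of 18377 genes was given the mean log2 signal intensity of its brightest probe set over the 4 arrays and a percentile among all these genes. The geometric mean intensity ran from 20 to 12275, with a lower quartile of 40.2, a median of 78 and an upper quartile of 202. Genes above the 75th percentile are called high, those below the 25th percentile dim and the rest moderate, so that 4594 genes (25%) were high by construction. Just inside the high class lay SNORD37 (75.01) and just outside it PMCH (at 75), both at 202.2, while KRTAP3-1 (40.2) was just inside the dim class and MAT1A (40.22) just outside. Olfactory receptor genes, which lymphoid cells hardly use, show how bright a probe set is with little target. Their 339 probe sets had a median intensity of 29, 295 of them were dim and none was high, and the brightest reached 75.9. Their 95th percentile, an intensity of 49.6, is called the olfactory limit below, and 12205 genes (66.4%) lay above it. The limit lay at percentile 33.6 of all genes, so the lowest moderate genes did not exceed it.

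The 4 arrays gave nearly the same levels. Pearson's r across genes, which are not independent replicates, was 0.9982 between the JAK3-arm arrays, 0.9951 between the EZH2-arm arrays and 0.9939 to 0.9948 between arms. The median SD of a gene was 0.072 on the log2 scale, and 16900 genes (92%) kept their class on all 4 arrays. The error between genes is larger than the error between arrays, because a probe set's brightness also depends on its own probes. In the 685 genes with several probe sets, the brightest and the dimmest lay a median of 6.6 percentile points apart, 39.3 points at the 90th percentile, and 489 (71.4%) kept 1 class. A class is therefore firmer than a rank, and genes a few points apart have no order here. The gene lists below were chosen with earlier results of these data known, so a count per list describes its members only. Intensities are given below for array 1 and array 2 of each arm, and a number alone in brackets after a gene is its percentile. Where arms are said not to overlap, 2 arrays stand against 2, and the split was not tested. The share of all genes that split in this way was not counted. A split named below therefore does not set that gene apart from the rest. Other genes below, such as IL2RA, B2M and CXCR4, split without a remark.

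**Figure D1:**
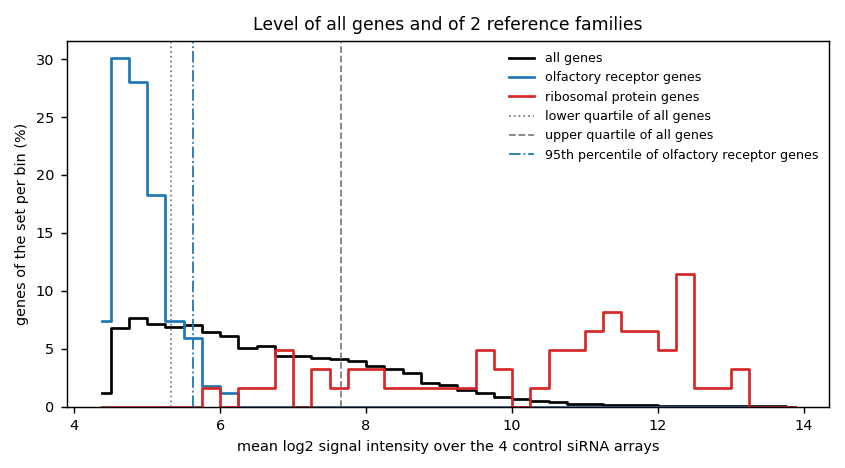
Share of genes (y axis, %) by mean log2 signal intensity over the 4 control siRNA arrays (x axis), for all 18377 genes, 339 olfactory receptor genes and 61 ribosomal protein genes, with the quartiles and the olfactory limit as vertical lines. Olfactory receptor genes lie mostly left of the lower quartile (295 of 339), while 52 of the 61 ribosomal protein genes lie right of the upper quartile.

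Of the 5 marker genes, PRF1, EZH2 and JAK3 were high and the surface markers NCAM1 and KLRD1 were moderate. PRF1, which encodes the pore-forming protein perforin, had intensities of 3051 and 2994 on the JAK3-arm arrays and 2210 and 2587 on the EZH2-arm arrays, at percentile 99.6 (99.39 to 99.61 on single arrays). EZH2 had 890.8 and 871.1 in the JAK3 arm and 926.3 and 690.8 in the EZH2 arm, at percentile 96.5. JAK3 had 322.5 and 326.3 in the JAK3 arm and 339.9 and 309.7 in the EZH2 arm, at percentile 85.3. In these 3 genes the class was the same on every control array, and for EZH2 and JAK3 the values of the arms overlapped. NCAM1, which encodes CD56, the adhesion molecule by which NK cells are recognised, had 178.3 and 189.1 in the JAK3 arm and 169.2 and 177 in the EZH2 arm (percentile 72.1). KLRD1, which encodes CD94, the common partner of the NKG2 receptors, had 192.7 and 192.2 in the JAK3 arm and 99.9 and 103.7 in the EZH2 arm (percentile 66.2). Both were moderate on all 4 arrays. Their arms did not overlap, narrowly for NCAM1 and widely for KLRD1, which was not tested. The markers did not keep these percentiles on all other arrays, where NCAM1 ranged from 39.5 to 74.9 and KLRD1 from 36.1 to 66.0, while PRF1 stayed between 99.4 and 99.8.

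**Figure D2:**
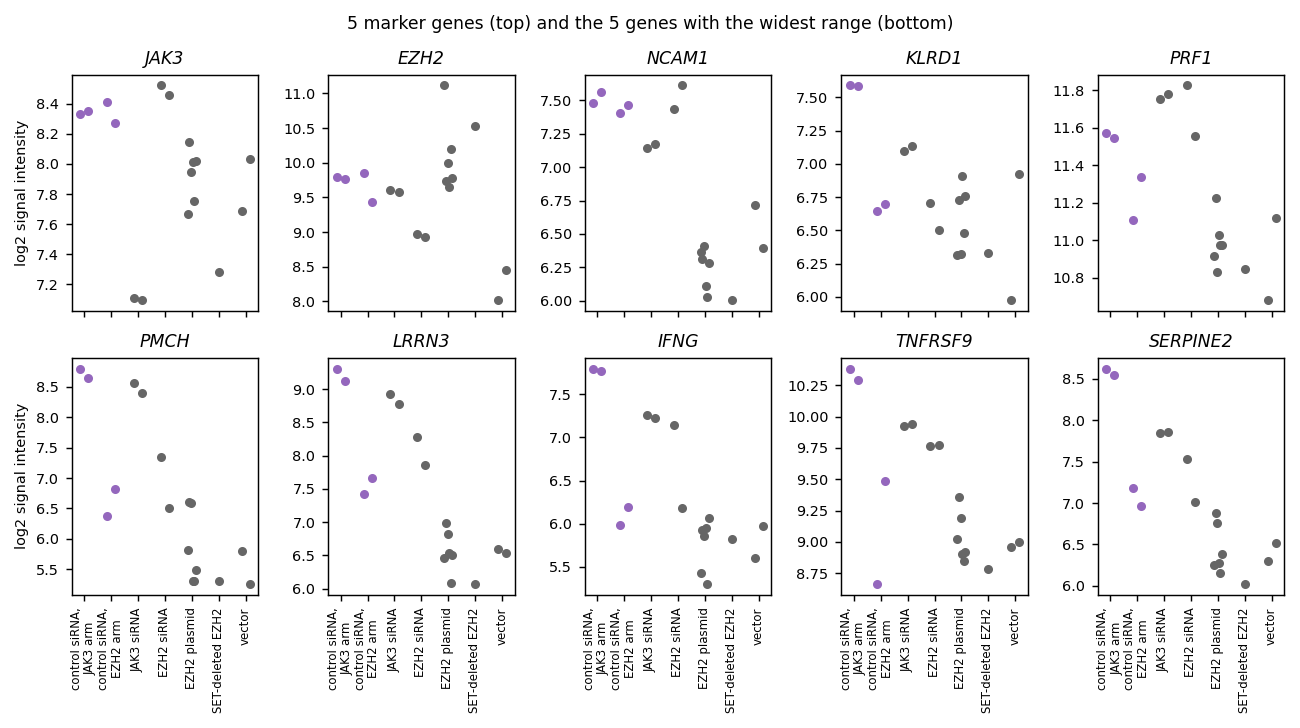
Log2 signal intensity (y axis, a scale of its own in each panel that does not start at 0) of the 5 marker genes and of the 5 genes with the widest range over the control arrays, with 1 point per array, control siRNA arrays in purple and the other 13 arrays in grey. The control points of JAK3, EZH2 and NCAM1 lie close together, while those of KLRD1 and of the genes in the bottom row split by arm, with the JAK3 arm above the EZH2 arm.

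Genes of the surface receptors by which NK cells are told apart were high less often than all genes. Of 27 measured NK receptor and adaptor genes, 4 (14.8%) were high and 10 dim, with a median percentile of 36.3 against 50 over all genes. Above the olfactory limit lay 14 of them (51.9%), against 66.4% of all genes. In bulk RNA, fewer cells with a transcript and less of it per cell cannot be told apart. The brightest was CD226, which encodes the activating receptor DNAM-1, with 823.6 and 794.5 in the JAK3 arm and 580.4 and 929 in the EZH2 arm (percentile 95.9). CD247, the zeta chain that passes on signals of CD16 and NKp46, had 378.6 and 371.4 in the JAK3 arm and 324.5 and 329.6 in the EZH2 arm (percentile 86.6). NCR1, which encodes NKp46 itself, had 204.8 and 230.2 in the JAK3 arm and 204.8 and 205.8 in the EZH2 arm, near the border of the high class at percentile 76.1 (74.77 to 78.17 on single arrays). KLRC1, which encodes the NKG2A or NKG2B chain that pairs with CD94, had 251.1 and 225.4 in the JAK3 arm and 160.7 and 241 in the EZH2 arm, so that it was high on 3 arrays and moderate on EZH2-arm array 1. The signalling adaptors SH2D1A and SH2D1B and the surface antigen CD7 were moderate, between percentiles 62.4 and 74.1.

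Several receptors of mature blood NK cells gave signals like those of olfactory receptor genes. FCGR3A, which encodes the Fc receptor CD16, had 26.74 and 26.03 in the JAK3 arm and 25.41 and 25.89 in the EZH2 arm (percentile 6.41). KLRB1, which encodes CD161, had 23.35 and 23.74 in the JAK3 arm and 24.23 and 23.74 in the EZH2 arm (percentile 2.57). KLRF1, which encodes NKp80, had 21.9 and 21.78 in the JAK3 arm and 21.97 and 21.74 in the EZH2 arm, at percentile 0.47 and close to the lowest signal of the table. These 3 genes were dim on every control array and did not exceed percentile 13.1 on the other 13. SLAMF7 (2.68), SLAMF6 (17.3), the Fc receptor adaptor FCER1G (18.2), KLRG1 (20.4), KLRC3 (21.6), CD2 (21.9) and CD160 (23.3) made up the rest of the dim class, given as percentiles. A further 6 genes of this list, among them KLRK1 and the KIR receptors, were not analysed here.

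The cytotoxic machinery was divided between very bright and dim members. Of 20 measured genes 9 were high and 4 dim, with a median percentile of 63.6. GZMB, the granzyme that cuts after aspartate and starts apoptosis, had 3805 and 3871 in the JAK3 arm and 2835 and 5473 in the EZH2 arm (percentile 99.8). NKG7, a granule membrane protein, had 1416 and 1446 in the JAK3 arm and 1262 and 1468 in the EZH2 arm (percentile 98.5). SRGN, the proteoglycan serglycin that packs granzymes, had 1323 and 1218 in the JAK3 arm and 1022 and 1433 in the EZH2 arm (percentile 98.1). With PRF1 these were the brightest genes of the list, and their arms overlapped except for PRF1. Also high were the death ligand gene TNFSF10 (percentile 95.8), the granzyme-activating protease gene CTSC (95.8) and the granule release genes RAB27A (94.7) and STX11 (91.0), as well as LAMP1 (84.7), which marks released granules. The other granzymes did not follow GZMB. GZMM was moderate at percentile 63.9 and GZMH at percentile 40.3, while GZMA had 29.36 and 27.5 in the JAK3 arm and 29.12 and 29.03 in the EZH2 arm (percentile 10.9). GZMK, with 22.19 and 22.06 in the JAK3 arm and 21.72 and 21.34 in the EZH2 arm, lay at percentile 0.45. GNLY, which encodes granulysin, was at percentile 32.0 and below the olfactory limit, and the ligand gene FASLG was dim at percentile 20.4.

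**Figure D3:**
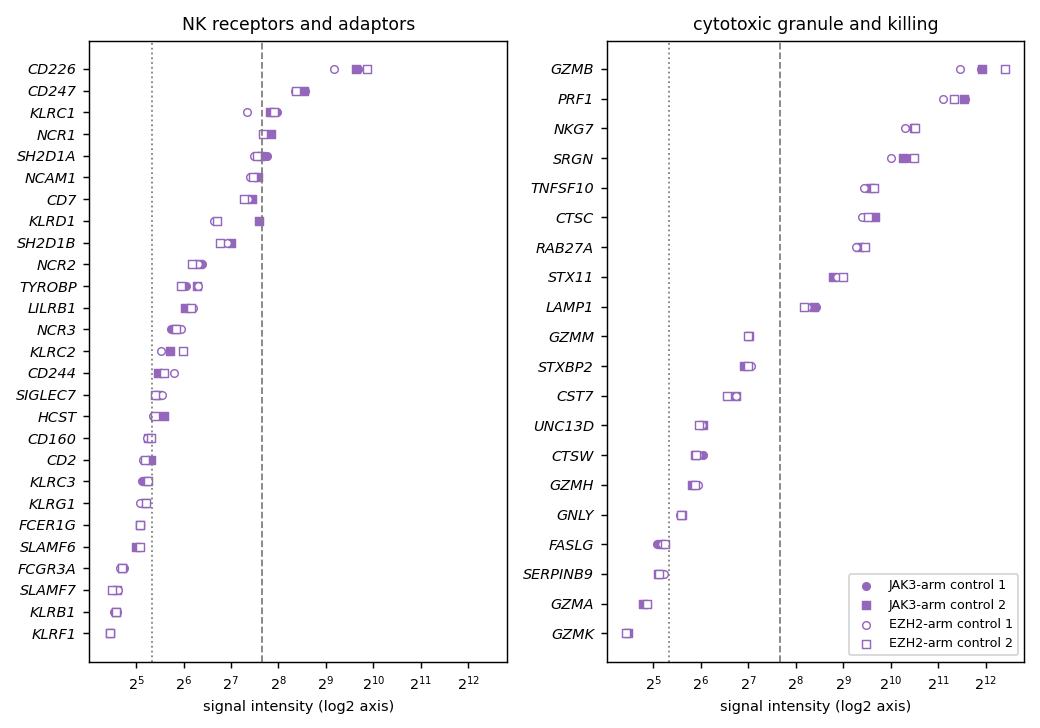
Signal intensity on a log2 axis (x) of the 27 NK receptor and adaptor genes (left) and the 20 cytotoxic genes (right) on each of the 4 control arrays, filled symbols for the JAK3 arm and open symbols for the EZH2 arm, with the quartiles of all genes as vertical lines. CD226 is the only receptor gene far right of the upper quartile, while GZMB and PRF1 lie at or above an intensity of 2210 and GZMA and GZMK left of the lower quartile.

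IRF4, MYB and PRDM1 were the brightest lymphoid transcription factor genes, and LEF1 and IKZF2 were dim. Of 28 measured factors 11 were high and 2 dim, with a median percentile of 70.0. IRF4, a factor induced by antigen receptor and cytokine signals, had 2175 and 2091 in the JAK3 arm and 2262 and 2227 in the EZH2 arm (percentile 99.4). MYB, a factor of blood progenitors, had 887.6 and 874.2 in the JAK3 arm and 1015 and 1023 in the EZH2 arm (percentile 97.2), and the arms did not overlap. PRDM1, which encodes BLIMP1, had 978.1 and 966 in the JAK3 arm and 784.6 and 878 in the EZH2 arm (percentile 96.9). IKZF1, ID2 and RUNX3 lay between percentiles 90.4 and 94.6, and ETS1, ZEB2 and NFIL3, a factor that NK cell development needs, between percentiles 86.4 and 87.8. The T-box factors that direct NK maturation were moderate, EOMES at percentile 67.0 and TBX21 at percentile 54.5. LEF1 had 29.01 and 29.16 in the JAK3 arm and 30.34 and 28.65 in the EZH2 arm (percentile 11.8), and IKZF2, which encodes Helios, was dim at percentile 12.5. BACH2, which keeps T cells resting, was at percentile 30.8 and BCL11B, which T cell commitment needs, at percentile 40.1.

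Genes of other cell types and tissues were high less often than all genes. Over the 6 lists of such genes, 6 of 76 measured genes (7.9%) were high and 21 (27.6%) dim, against 25% each over all genes. Their median percentile was 39.3, against 50 over all genes. The defining T cell genes CD3D, CD3E and CD3G lay between percentiles 14.7 and 18.4, and THEMIS had 24.55 and 24.85 in the JAK3 arm and 25.37 and 24.22 in the EZH2 arm (percentile 4.25). CD8A, CD8B, CD5 and CD6 were moderate, between percentiles 31.2 and 46.4, and CD28 (20.6) and CTLA4 (9.06) were dim. CD8B and CD5 lay below the olfactory limit, and the other probe set of CD8B was at percentile 3.28. CD4, by contrast, was high, with 413.1 and 407.3 in the JAK3 arm and 342 and 310.6 in the EZH2 arm (percentile 87.4). So was the costimulatory receptor gene ICOS, with 329.4 and 325 in the JAK3 arm and 335 and 331.7 in the EZH2 arm (percentile 85.6). The third was TRAT1, an adaptor of the T cell receptor complex, with 241.8 and 212.3 in the JAK3 arm and 222.4 and 213.1 in the EZH2 arm (percentile 77.1). All 3 were high on every control array, whereas on the other 13 arrays ICOS ranged from 33.8 to 87.4 and TRAT1 from 19.2 to 81.2.

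No B cell gene of 10 and no myeloid gene of 14 was high. CD22 reached percentile 71.6 and CSF1R percentile 70.0, MS4A1, which encodes CD20, lay at percentile 12.9, CD14 at percentile 30.6 and LYZ, which encodes lysozyme, at percentile 5.50. High genes outside the blood lineages were PDGFRA, a growth factor receptor of mesenchymal cells, with 873.7 and 790.7 in the JAK3 arm and 930 and 922.7 in the EZH2 arm (percentile 96.7), and ALB, which encodes albumin. ALB had 626.8 and 613.9 in the JAK3 arm and 580 and 666.9 in the EZH2 arm (percentile 94.2), and on the other arrays it ranged from 65.1 to 95.8. The liver genes APOB (19.7) and TTR (26.7) did not share that level. The platelet chemokine gene PPBP was high, with 1630 and 1562 in the JAK3 arm and 896.1 and 1520 in the EZH2 arm (percentile 98.4), beside PF4 at percentile 30.2. These genes stand on 1 probe set each, and what those probe sets measured beyond the named gene was not tested.

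**Figure D4:**
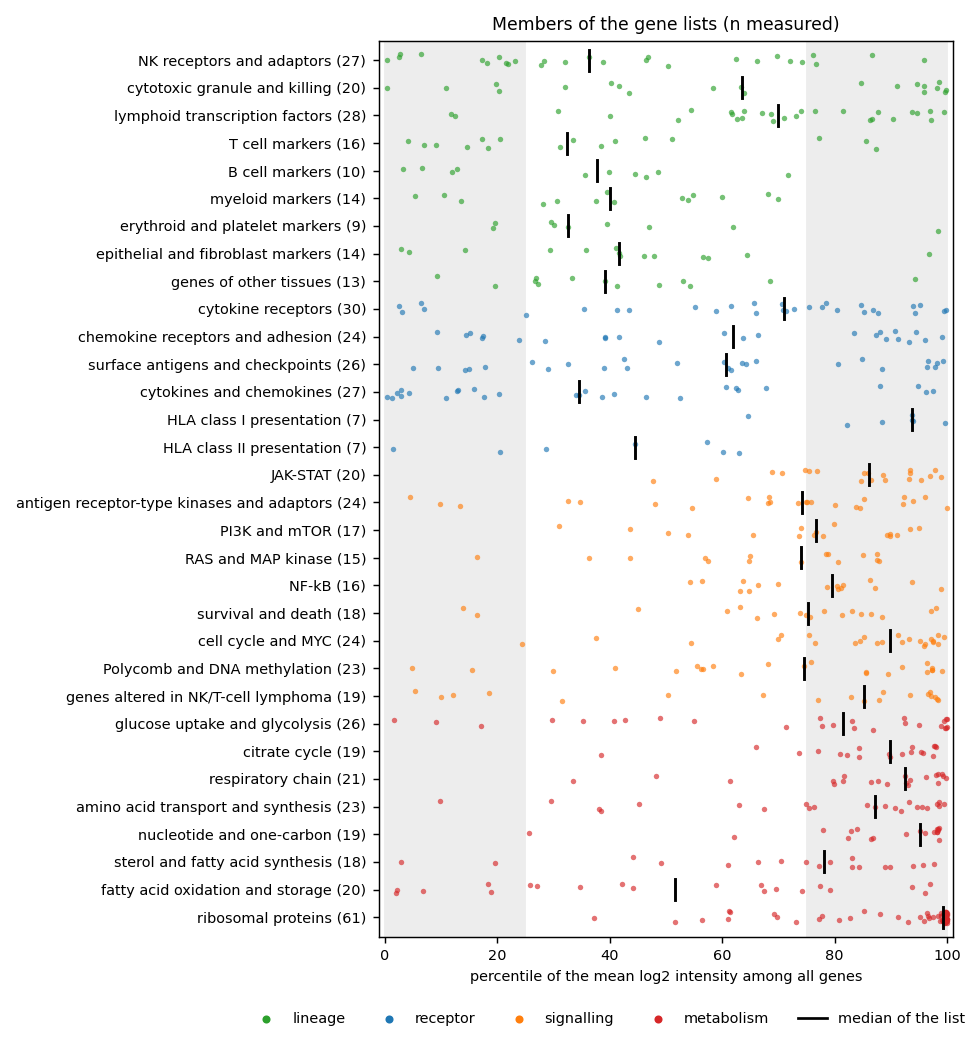
Percentile of the mean log2 intensity (x axis) of every measured member of the 32 gene lists (rows, with the number measured), with the median of each list as a bar and the high and dim quartiles shaded. Medians run from 32.3 for T cell markers to 99.3 for ribosomal proteins, and the lists of metabolism and signalling lie further right than most lineage and receptor lists.

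Among receptors for cytokines, the interleukin-2 receptor stood out. Of 30 measured cytokine receptor genes 13 were high and 4 dim, with a median percentile of 71.0. IL2RA, the alpha chain that gives the receptor high affinity, had 4027 and 3968 in the JAK3 arm and 3349 and 3702 in the EZH2 arm (percentile 99.8). IL2RG, the common gamma chain that binds JAK3, had 2400 and 2234 in the JAK3 arm and 1863 and 2222 in the EZH2 arm (percentile 99.4). IL2RB, the beta chain shared with the interleukin-15 receptor, had 621.3 and 624 in the JAK3 arm and 605.1 and 635.8 in the EZH2 arm (percentile 94.2). All 3 chains were high on every control array, and IL15RA lay at percentile 87.7. IL1R1, the receptor of interleukin-1, had 924 and 846.6 in the JAK3 arm and 457.3 and 648.8 in the EZH2 arm (percentile 95.1), and IL12RB2 lay at percentile 94.0. Of the other receptors that use the common gamma chain, IL4R (80.4) was high and IL21R (72.8) and IL9R (55.2) were moderate. IL7R had 26.88 and 24.89 in the JAK3 arm and 26.15 and 26.31 in the EZH2 arm, which put it at percentile 6.45 and in the dim class on all 4 arrays. The chains of the interleukin-18 receptor were at percentile 43.4 (IL18R1) and 7.10 (IL18RAP) percentiles.

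Receptors for homing and adhesion had 10 high and 6 dim genes of 24 measured. CCR7, which guides lymphocytes into lymph nodes, had 2168 and 2280 in the JAK3 arm and 1384 and 1738 in the EZH2 arm (percentile 99.1). The integrin gene ITGA4 (96.0), the hyaluronan receptor gene CD44 (94.5), the selectin ligand gene SELPLG (93.3), ICAM1 (91.3) and S1PR1 (89.0) were also high, and CXCR4 had 437.9 and 464.4 in the JAK3 arm and 298.6 and 291.6 in the EZH2 arm (percentile 87.4). CX3CR1, a fractalkine receptor of mature NK cells, had 26.92 and 27.44 in the JAK3 arm and 28.42 and 28.08 in the EZH2 arm (percentile 9.33). CCR2, CCR4, CCR6, CXCR5 and CXCR6 made up the rest of the dim class, between percentiles 14.4 and 23.9. The integrin chains of LFA-1, ITGAL (60.3) and ITGB2 (41.7), were moderate.

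Of 26 surface antigens and checkpoint genes, 8 were high and 5 dim. The transferrin receptor gene TFRC (99.2), CD47 (98.2), which signals against uptake by macrophages, TNFRSF8 (97.8), which encodes CD30, and the death receptor gene FAS (96.6) led the list. TNFRSF8 varied little, with 1121 and 1114 in the JAK3 arm and 1093 and 1082 in the EZH2 arm. CD274, which encodes PD-L1, had 309.4 and 276.9 in the JAK3 arm and 176.1 and 294.4 in the EZH2 arm (percentile 80.6), and EZH2-arm array 1 alone put it below the high class. The checkpoint receptors HAVCR2 (64.3) and LAG3 (61.1) were moderate, and TIGIT (17.8) and BTLA (14.2) were dim. CD38 was moderate (51.9), as was CD52 (32.5), which lay below the olfactory limit. CD69, an early activation antigen, had 24.33 and 25.91 in the JAK3 arm and 26.49 and 23.92 in the EZH2 arm (percentile 5.02).

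Few cytokine and chemokine genes were high. Of 27 measured, 4 were high, 11 moderate and 12 dim, with a median percentile of 34.5. Above the olfactory limit lay 15 of them (55.6%), against 66.4% of all genes. IL10, which encodes an anti-inflammatory cytokine, had 904.3 and 852.2 in the JAK3 arm and 1077 and 1305 in the EZH2 arm (percentile 97.4), and the arms did not overlap. On the other 13 arrays IL10 ranged from percentile 21.3 to 98.6. TGFB1 (96.3) and IL32 (94.7) were high on all 4 arrays, and CCL5, a chemokine of cytotoxic cells, had 594.4 and 627 in the JAK3 arm and 251 and 223.3 in the EZH2 arm (percentile 88.1). CCL5 was high in both arms although these did not overlap. IL2 had 21.92 and 22 in the JAK3 arm and 21.77 and 21.82 in the EZH2 arm (percentile 0.50), in cells that were given the protein. TNF (15.97), XCL1 (20.3), XCL2 (2.88) and CCL4 (4.38), which activated NK cells release, were dim. LTB (67.8), IFNG (62.8) and CCL3 (46.4) were moderate by their means, so such genes were not uniformly dim.

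The measured genes of HLA class I presentation were brighter than those of class II, but the lists differ in kind. No class I heavy chain was among the class I genes measured, while the class II genes included HLA-DP and HLA-DQ chains. Of 7 measured class I genes 6 were high, and none of 7 class II genes was. B2M, the light chain of class I, had 3597 and 3398 in the JAK3 arm and 2968 and 2986 in the EZH2 arm (percentile 99.6), and PSMB9, TAPBP and TAP1 lay between percentiles 93.8 and 93.9. In class II, the regulator gene CIITA was at percentile 63.0, HLA-DPA1 at percentile 60.2 and HLA-DQB1 at percentile 1.58. A further 6 class I and 3 class II genes of the lists were not analysed here. HLA class II genes are polymorphic, and how well the probes match the alleles of NKYS was not tested.

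Most genes of the JAK-STAT list were high, a list wider than the pathway below the interleukin-2 receptor. Of 20 measured JAK-STAT genes 15 were high, 5 moderate and none dim, and all 20 lay above the olfactory limit, with a median percentile of 86.2. Of the kinases, JAK1 had 587.1 and 576.3 in the JAK3 arm and 554.6 and 565.1 in the EZH2 arm (percentile 93.3), JAK3 was at percentile 85.3, TYK2 at percentile 76.9 and JAK2 at percentile 58.8. JAK1, JAK3 and TYK2 were high on every control array and JAK2 was moderate. Of the transcription factors, STAT3 had 1214 and 1131 in the JAK3 arm and 1035 and 1063 in the EZH2 arm (percentile 97.8), STAT5B was at percentile 93.4, STAT5A at percentile 88.9, STAT6 at percentile 85.9 and STAT4 at percentile 68.8. The targets PIM2 (98.8), PIM1 (93.2) and CISH (86.4), which STAT5 is known to switch on, were high, and so were SOCS3 (84.7) and SOCS2 (75.4), feedback inhibitors of the pathway. The phosphatase gene PTPN6, which encodes SHP-1, had 71.13 and 78.21 in the JAK3 arm and 73.86 and 69.12 in the EZH2 arm (percentile 47.7), while PTPN11, which encodes SHP-2, was at percentile 96.9.

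Kinases and adaptors of antigen receptor-type signalling were mixed, with 11 high and 3 dim genes of 24. The high count includes PLCG2 by its brighter probe set. PTPRC, which encodes the phosphatase CD45, had 756.5 and 721.9 in the JAK3 arm and 754 and 947.3 in the EZH2 arm (percentile 96.1), and the adaptor gene LCP2 had 783.1 and 748.8 in the JAK3 arm and 480.6 and 481.2 in the EZH2 arm (percentile 94.0). LYN (92.2) and SYK (75.1) were high, ZAP70 (54.6), FYN (48.1) and LCK (34.7) moderate, and BTK (13.3), TXK (9.83) and VAV3 (4.53) dim. The level of PLCG2, the phospholipase downstream of NK receptors, could not be placed. Its brighter probe set had an intensity of 5910 (percentile 99.9) and its other one 55.34 (percentile 37.7).

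The PI3K and mTOR list had 10 high and no dim genes of 17, led by AKT1 (94.99), PIK3R1 (93.3), AKT2 (91.0) and MTOR (89.8). PIK3CD, the catalytic subunit found mainly in leukocytes, was moderate at percentile 54.0. Of 15 RAS and MAP kinase genes 7 were high and 1 dim, with MAP2K1 (87.9), DUSP6 (87.6), MAPK3 (87.5) and ARAF (85.0) at the top and the inhibitor gene SPRY4 (16.4) at the bottom. DUSP6, a phosphatase of ERK, ranged from percentile 37.1 to 86.7 on the other arrays. Of 16 NF-kB genes 9 were high and none dim. NFKBIA, the inhibitor that NF-kB itself induces, had 1738 and 1736 in the JAK3 arm and 1300 and 1678 in the EZH2 arm (percentile 98.9), followed by NFKB1 (93.7), TRAF3 (87.1) and RELA (86.2). MAP3K14, the kinase of the alternative NF-kB pathway, was at percentile 54.3.

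Of 18 genes of survival and death, 9 were high and 2 dim. MDM2, the ligase that removes p53, had 1295 and 1200 in the JAK3 arm and 1063 and 1093 in the EZH2 arm (percentile 98.0), and its fellow p53 target CDKN1A was at percentile 88.4. Of the protective BCL2 family, MCL1 had 936 and 864.9 in the JAK3 arm and 871.7 and 1137 in the EZH2 arm (percentile 97.2), BCL2L1 was at percentile 86.4, BCL2 at percentile 78.2 and BCL2A1 at percentile 13.9. The death-promoting members BAX (83.0) and PMAIP1 (84.6) were high and BCL2L11, which encodes BIM, was dim at percentile 16.5.

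The genes of cell division were among the brightest outside ribosomes and metabolism. Of 24 measured genes 19 were high and 1 dim, with a median percentile of 89.9. CCND2, the D-type cyclin, had 2797 and 2794 in the JAK3 arm and 2282 and 2430 in the EZH2 arm (percentile 99.5), against CCND3 at percentile 88.4 and CCND1 at percentile 54.5. MYC had 1010 and 946 in the JAK3 arm and 926.5 and 810.7 in the EZH2 arm (percentile 97.02), while MYCL (37.6) and MYCN (24.4), its relatives of other tissues, were moderate and dim. MKI67, which encodes the proliferation antigen Ki-67, had 899.7 and 912.6 in the JAK3 arm and 1296 and 1123 in the EZH2 arm (percentile 97.6), and the arms did not overlap. On the other 13 arrays MKI67 lay between percentiles 67.5 and 97.9 and CDK1, the kinase that starts mitosis, between percentiles 9.95 and 84.9.

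Polycomb repressive complex 2 was bright in each of its core subunits. The histone-binding subunit genes RBBP7 (99.1) and RBBP4 (97.4), the scaffold gene SUZ12, the enzyme gene EZH2 (96.5) and EED (85.6), which reads the methyl mark, were all high. SUZ12 had 1010 and 1006 in the JAK3 arm and 962 and 980 in the EZH2 arm (percentile 97.3). The accessory subunit genes AEBP2 (97.2), MTF2 (91.9), JARID2 (89.5) and PHF19 (85.6) were high too, whereas EZH1, the second enzyme, was at percentile 68.1. The demethylases that remove this mark were moderate, KDM6A at percentile 74.5 and KDM6B at percentile 55.6. The DNA methyltransferase gene DNMT1 (96.4) was high, DNMT3A (51.7) and DNMT3B (40.9) moderate, and the demethylation genes TET2 (15.6) and TET1 (4.96) dim. Over the whole list 11 of 23 genes were high and 2 dim.

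Of 19 measured genes listed as altered in NK/T-cell lymphoma, 12 were high and 4 dim. The helicase gene DDX3X had 1334 and 1248 in the JAK3 arm and 1196 and 1330 in the EZH2 arm (percentile 98.2), and MSN, STAT3, MYC, PRDM1 and FAS lay between percentiles 96.6 and 98.3. The repressor gene BCOR (18.6), MGA (12.2), ASXL3 (10.1) and the phosphatase gene PTPRK, with 25.97 and 25.68 in the JAK3 arm and 25.05 and 25.07 in the EZH2 arm (percentile 5.41), were dim. A level on these arrays does not say whether a gene carries a mutation.

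Metabolic genes were high more often than any other kind. Over the 8 lists of this kind, which include the ribosomal proteins, 149 of 207 measured genes (72.0%) were high and 11 (5.3%) dim. The corresponding shares were 57.9% and 7.6% over the signalling lists, 33.9% and 24.0% over the receptor lists, and 32.0% and 21.3% over the lineage lists without other cell types. Housekeeping genes fill many metabolic lists, so that these shares say nothing particular to NKYS cells.

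Glycolysis held the brightest gene of the arrays. GAPDH had 12280 and 12100 in the JAK3 arm and 13360 and 11440 in the EZH2 arm and ranked first of all genes, and ENO1, an enzyme further down the pathway, had 7869 and 7772 in the JAK3 arm and 7622 and 6570 in the EZH2 arm. LDHA and LDHB, the lactate dehydrogenase subunits, were both above the 99th percentile, with LDHA at 5125 and 4924 in the JAK3 arm and 5113 and 4394 in the EZH2 arm. Of the enzymes' isoforms, ENO2 (35.3), ENO3 (48.9), ALDOC (55.0), PKLR (42.7), HK3 (29.8) and LDHC (1.64) were moderate or dim beside ENO1, ALDOA (92.2), PKM (99.7), HK2 (86.7) and HK1 (77.3). The glucose transporter genes SLC2A3 (92.5) and SLC2A1 (79.6) were high, SLC2A4 (40.8), the transporter of muscle and fat, was moderate and SLC2A2 (9.10), that of liver, was dim. In all 16 of 26 genes were high.

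Mitochondrial pathways were likewise bright. In the citrate cycle 16 of 19 genes were high and none dim, led by SDHA (98.1), IDH3A (97.8) and the citrate synthase gene CS (97.6), while PC, which refills the cycle from pyruvate, had 55.89 and 57.8 in the JAK3 arm and 58.84 and 53.5 in the EZH2 arm (percentile 38.5). In the respiratory chain 18 of 21 nuclear genes were high. ATP5F1B, a catalytic subunit of ATP synthase, had 4012 and 3903 in the JAK3 arm and 3683 and 3845 in the EZH2 arm (percentile 99.8). The exceptions were the isoforms COX6A2 (61.4), COX4I2 (48.2) and COX7A1 (33.5), which are known from muscle or lung.

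Genes that feed growth were high more often than all genes, and those that burn or store fat about as often. In nucleotide and one-carbon synthesis 17 of 19 genes were high and none dim, with a median percentile of 95.1; MTHFD2 (98.6) and the ribonucleotide reductase genes RRM2 (98.5) and RRM1 (98.3) were among the brightest. CTPS1, the CTP synthase that dividing lymphocytes need, had 855.1 and 770.7 in the JAK3 arm and 756 and 719.8 in the EZH2 arm (percentile 96.0), while its paralog CTPS2 had 40.91 and 41.2 in the JAK3 arm and 40.57 and 41.4 in the EZH2 arm (percentile 25.7). Of 23 genes of amino acid transport and synthesis 15 were high and 1 dim. The glutamine transporter gene SLC38A1 had 2694 and 2408 in the JAK3 arm and 2210 and 2416 in the EZH2 arm (percentile 99.4), and SLC1A5 (95.6) and SLC7A5 (94.6) were high. ASNS, which makes asparagine, had 57.83 and 58.46 in the JAK3 arm and 50.92 and 57.22 in the EZH2 arm (percentile 38.2). PHGDH, the first enzyme of serine synthesis, had 54.51 and 58.17 in the JAK3 arm and 56.83 and 56.04 in the EZH2 arm (percentile 38.5), although the next enzyme, PSAT1, was high at percentile 91.7. ASS1, an enzyme of arginine synthesis from citrulline, was at percentile 29.6 and below the olfactory limit.

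In sterol and fatty acid synthesis 10 of 18 genes were high, with ACLY (97.6), INSIG1 (95.7), SCD (93.9) and FASN (89.9) leading. In fatty acid oxidation and storage 5 of 20 (25%) were high and 5 were dim, the same shares as over all genes. The median percentile of this list was 51.5. HADHA (96.9), ACADM (96.0) and HADHB (93.8), enzymes inside mitochondria, were high, whereas CPT1A, the gate through which long-chain fatty acids enter, had 38.72 and 41.29 in the JAK3 arm and 43.45 and 41.44 in the EZH2 arm (percentile 25.9). The fatty acid uptake gene CD36, with 23.71 and 23.09 in the JAK3 arm and 23.46 and 23.16 in the EZH2 arm, was at percentile 1.98.

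The 15 brightest genes were GAPDH, SNORD13, FAF2, PTMA, RPS4X, RPS27, EEF1A1, ENO1, HSPA8, SNORD13P3, RPL18, SNORD33, RPS2, MPLKIP and ACTG1, with geometric means from 12275 down to 6250. They include genes of ribosomal proteins, translation, protein folding and the cytoskeleton, and small nucleolar RNAs, which guide the modification of ribosomal RNA. Of 61 ribosomal protein genes 52 were high and none dim, with a median percentile of 99.3. The 9 moderate ones were RPL23 (73.1), RPS27L (69.7), RPL22L1 (69.2), RPL22 (61.3), RPS29 (61.1), RPL32 (61.0), RPL39L (56.4), RPL3L (51.6) and RPL10L (37.3). Ribosomal protein genes have many near-identical pseudogene copies that can share probes, and these levels are uncertain for that reason. Among these 15 genes, 3 had probe sets that lay far apart: PTMA ran from 8378 down to 89.28, MPLKIP from 6321 down to 172.2, and FAF2 had 9217 and 542.

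MicroRNA genes were dim as a class. The array probes the locus and not the mature arms, and of 173 microRNA genes 2 were high and 108 dim, with a median percentile of 14.3, while 44 lay above the olfactory limit. The brightest were MIR326, with 249.1 and 254.7 in the JAK3 arm and 271.3 and 243.4 in the EZH2 arm (percentile 80.4), and MIR21, with 259.3 and 250.4 in the JAK3 arm and 152.9 and 221.9 in the EZH2 arm (percentile 76.6). MIR339 (72.5), MIR210 (68.1) and MIR193A (65.5) followed. Mature sequences of these 5 loci, from RefSeq on GRCh38.p14, are given because the seed decides which transcripts a microRNA pairs with; capitals mark the seed, bases 2 to 8.
hsa-miR-326: cCUCUGGGcccuuccuccag
hsa-miR-21-5p: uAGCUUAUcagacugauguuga
hsa-miR-339-5p: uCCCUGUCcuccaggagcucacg
hsa-miR-339-3p: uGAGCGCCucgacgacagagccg
hsa-miR-210-5p: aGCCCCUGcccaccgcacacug
hsa-miR-210-3p: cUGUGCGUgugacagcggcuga
hsa-miR-193a-5p: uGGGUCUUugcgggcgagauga
hsa-miR-193a-3p: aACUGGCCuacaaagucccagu
No seed is shared among these sequences.

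The level of a gene went with the CpG ratio of its promoter, while the GC share set apart only the dim class. Promoter windows of 250 bases before to 50 after the start were taken from RefSeq (GRCh38.p14) for 13740 of 16273 protein-coding genes (84.4%), and the match was 89.8% in the high, 81.7% in the moderate and 84.2% in the dim class. The observed over expected CpG ratio averaged 0.84 in the high class, 0.69 in the moderate class and 0.49 in the dim class, against 0.69 over all genes. The mean GC share was 64.4% in the high, 64.1% in the moderate and 54.6% in the dim class, against 61.9% over all genes. Each motif was searched by its letters on both strands. A TATA box (TATAAA) was found in 5.24% of high, 7.75% of moderate and 15.8% of dim promoters, against 8.95% of all. A GC box (GGGCGG) was in 71.6% of high, 65% of moderate and 38.9% of dim promoters, against 60.7% of all. An ETS core (CCGGAA) was in 34.9% of high, 22.9% of moderate and 11.1% of dim promoters, against 23.5% of all. The YY1 core (AAGATGGC) was in 7.38%, 3.58% and 1.48% in the same order of classes, against 4.15% of all. The letters of the GC box and of the ETS core themselves hold a CpG. The STAT palindrome (TTCNNNGAA, which also holds every match of the narrower TTCCNGGAA) was in 6.86% of high, 5.79% of moderate and 9.5% of dim promoters, against 6.96% of all. A CCAAT box was about as common in each class, at 38.7%, 34.5% and 37.4%. In 50 promoters of ribosomal protein genes the CpG ratio was 0.91 and 12% had a TATA box, and in 273 of olfactory receptor genes the ratio was 0.15 and 31.1% had one. A match is a description of the letters and not evidence of a bound factor.

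**Figure D5:**
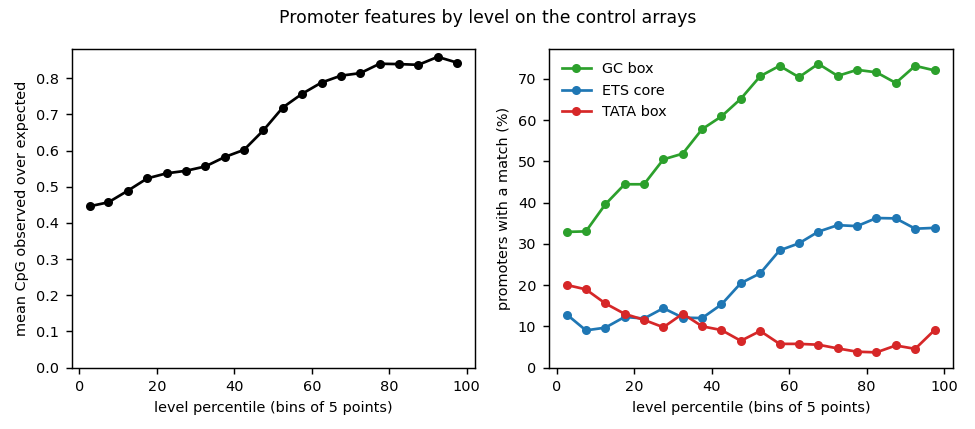
Mean CpG observed over expected (left) and share of promoters with a GC box, an ETS core or a TATA box (right, %) in bins of 5 percentile points of gene level on the control arrays (x axis). The CpG ratio, the GC box and the ETS core climb over the lower and middle bins and are nearly flat over the upper ones. The TATA box is most frequent in the lowest bins, and rises again from 4.53% in the bin before last to 9.08% in the brightest.

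The rule across genes does not hold for each gene, as 5 promoters show. The 250 bases before the start are given for both genes the study targeted, for a glycolytic gene, for the brightest granzyme gene and for a dim receptor gene, with every CG in capitals. EZH2 (chr7:148884292-148884541, minus strand) has 38 CG, ENO1 (chr1:8878687-8878936, minus strand) 27 and JAK3 (chr19:17847983-17848232, minus strand) 10. GZMB (chr14:24634191-24634440, minus strand) has 1 CG although it was at percentile 99.8, and IL7R (chr5:35856641-35856890, plus strand), at percentile 6.45, has none and holds a TATA box.
EZH2: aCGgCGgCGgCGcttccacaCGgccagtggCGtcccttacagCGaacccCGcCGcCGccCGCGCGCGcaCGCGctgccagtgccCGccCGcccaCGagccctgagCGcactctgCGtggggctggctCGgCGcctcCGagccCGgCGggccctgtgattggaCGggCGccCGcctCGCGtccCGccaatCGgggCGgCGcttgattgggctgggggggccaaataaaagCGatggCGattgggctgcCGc
JAK3: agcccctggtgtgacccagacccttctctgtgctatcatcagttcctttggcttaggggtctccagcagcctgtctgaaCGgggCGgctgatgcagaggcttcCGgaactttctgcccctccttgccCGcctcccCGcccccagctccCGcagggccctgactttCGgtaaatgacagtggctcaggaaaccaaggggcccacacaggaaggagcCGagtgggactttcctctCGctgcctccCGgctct
ENO1: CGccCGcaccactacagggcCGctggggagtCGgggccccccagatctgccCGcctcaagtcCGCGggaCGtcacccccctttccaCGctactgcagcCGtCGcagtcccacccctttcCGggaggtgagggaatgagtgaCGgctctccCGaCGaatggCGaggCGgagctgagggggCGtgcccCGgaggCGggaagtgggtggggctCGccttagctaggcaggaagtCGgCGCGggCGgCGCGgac
GZMB: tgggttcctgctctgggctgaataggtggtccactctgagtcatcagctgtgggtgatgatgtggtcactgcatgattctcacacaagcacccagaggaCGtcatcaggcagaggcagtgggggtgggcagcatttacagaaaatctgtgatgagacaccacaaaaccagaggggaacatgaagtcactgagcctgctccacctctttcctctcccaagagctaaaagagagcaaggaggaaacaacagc
IL7R: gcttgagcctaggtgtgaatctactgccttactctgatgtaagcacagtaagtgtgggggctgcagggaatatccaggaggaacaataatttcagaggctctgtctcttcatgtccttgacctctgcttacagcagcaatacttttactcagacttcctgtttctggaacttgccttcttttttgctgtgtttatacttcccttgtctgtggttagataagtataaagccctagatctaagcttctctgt
GZMB and IL7R thus look alike in their count of CG and lie at opposite ends of the level scale. Their GC shares were 52.4% and 43.6%.

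A few genes varied between the arrays far more than the rest. The range over the 4 arrays had a median of 0.161 on the log2 scale and exceeded 1 in 37 genes, 30 of them above the olfactory limit on all 4. The widest was that of PMCH, which encodes the precursor of melanin-concentrating hormone, with 444.9 and 398.8 in the JAK3 arm and 83.01 and 113.5 in the EZH2 arm, a range of 2.42 on the log2 scale. LRRN3, a leucine-rich repeat membrane protein, had 632.7 and 557.5 in the JAK3 arm and 171.6 and 203.2 in the EZH2 arm (percentile 85.7 of the mean). IFNG, the interferon that NK cells release, had 222.3 and 218.5 in the JAK3 arm and 63.15 and 73.39 in the EZH2 arm (percentile 62.8). It was high on both JAK3-arm arrays and moderate on both EZH2-arm arrays. TNFRSF9, which encodes the costimulatory receptor 4-1BB, had 1333 and 1255 in the JAK3 arm and 406 and 718.6 in the EZH2 arm (percentile 96.4), and SERPINE2, a protease inhibitor, had 393.1 and 372.4 in the JAK3 arm and 145.5 and 124.7 in the EZH2 arm (percentile 77.6). The arms did not overlap in any of these 5 genes, which were picked for their range, so that the order of the arms carries no test. The labels give no date or culture by which a cause for the arms could be told apart. On the other 13 arrays PMCH ran from percentile 19.3 to 87.9 and IFNG from percentile 20.4 to percentile 68.2.

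The classes held on the other siRNA arrays better than on the plasmid and vector arrays. On the 4 arrays with JAK3 or EZH2 siRNA, 95.4% to 96.5% of the genes high on the control arrays were high and 95.8% to 96.7% of the dim genes were dim, with r of 0.995 to 0.997 across genes. On the 9 plasmid and vector arrays these shares were 68.9% to 86.3% and 87.1% to 95.2%, with r of 0.868 to 0.966.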

How the data were processed

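RNA of 17 NKYS arrays had been labelled with biotin from 100 ng of total RNA, per the labels' protocols. The authors deposited 1 intensity, on a linear scale, per array for each of 28869 probe sets. Background correction, normalization and summary of probes were not given in the sources used here, so the deposited intensity was used as it stands, after log2. By the platform annotation 19310 probe sets had 1 gene symbol, 1752 several and 7807 none; 19279 gene identifiers matched the RefSeq table of GRCh38.p14, and 0 symbols changed. Of a gene's probe sets, the one with the highest mean over the 4 control siRNA arrays was used. Arrays carry no read depth, so their number limits the precision.

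No groups were compared and no statistical test of groups was run. Dixon's ratio, with a critical value of 0.829 for 4 arrays, served only to flag single arrays. Python 3.11.15, pandas 2.3.3, NumPy 2.4.6 and matplotlib 3.10.9 were used. There were 32 gene lists with 666 symbols, of which 587 were measured and 79 were not analysed here. The members and lists were chosen with earlier results of these data known. The rule for full values took the 5 marker genes, the 15 brightest genes, the 4 highest and 2 lowest of each list, high genes of other cell types and the 5 widest ranges, 209 genes in all. Other list members, microRNA genes, the 5 promoters and the genes under other observations were chosen after their values were seen. Alternatives were another choice or mean of probe sets, linear means, quantile normalization, median centring, ranking among all probe sets or without olfactory receptor genes, deciles, the 99th olfactory percentile, 1 arm alone and leaving out each array.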

Additional observations from a re-analysis of the deposited data

Results flagged for a closer look

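Of the 209 genes given by rule, 10 had 1 control array far from the other 3 by Dixon's ratio, which chance does in about 1 of 20 groups. EZH2-arm array 1 was the low one for EEF1A1 (7023, against 7614 to 7720 on the other 3), PPBP (896.1, against 1520 to 1630), NFKBIA (1300, against 1678 to 1738) and the isocitrate dehydrogenase gene IDH2 (119.6, against 146.5 to 147.7). It was the high one for AKT2 (496.2, against 451.6 to 454.9). EZH2-arm array 2 was low for CD163 (27.37, against 28.78 to 28.96) and BCL2A1 (28.77, against 31.12 to 31.45), both dim, and high for RBBP7 (1941, against 1844 to 1860). JAK3-arm array 2 was high for NCR1 (230.2, against 204.8 to 205.8), and JAK3-arm array 1 for IKZF1 (677.7, against 639.7 to 642.9). Of the 10 genes, 5 stood out on EZH2-arm array 1. The 10 flagged of 209 genes are close to the 1 of 20 that chance gives.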

How the results depend on the processing

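No paired analysis was possible because no groups were compared or tested. The 64 counts of high and dim list members stayed within 1.5 times under another choice or the mean of probe sets, linear means, quantile normalization, median centring, either arm alone and each array left out. Ranking among all probe sets, many of them unnamed and dim, gave more high and fewer dim genes: NK receptors had 7 high (4 among genes) and 4 dim (10), B cell and myeloid markers 1 high each (0 among genes), and cytotoxic genes 2 dim (4). Under the same ranking, T cell markers had 4 dim (7), erythroid and platelet markers 0 (2), genes of other tissues 1 (2), chemokine receptors and adhesion 3 (6), HLA class II 1 (2), cell cycle 0 (1), sterol synthesis 1 (2) and fatty acid oxidation 3 (5). Without olfactory receptor genes 1 nucleotide gene, CTPS2, was dim (0 with them). The 99th olfactory percentile left 56.3% of genes and 47.8% of probe sets above the limit, against 66.4% and 57.5%. By deciles, the top promoters had a CpG ratio of 0.85 and a TATA box in 6.75%, and the lowest 0.45 and 19.5%, with a GC box in 33%. Ranking among all probe sets changed the class of 10 of the 209 genes given by rule, NCAM1 (high there) among them. The JAK3 arm alone changed 2 (PMCH and IFNG) and the EZH2 arm alone 3 (KLRC1, LRRN3 and SERPINE2). The largest shift of a percentile was that of PMCH in both, 14.5 points with the JAK3 arm alone and 18.6 with the EZH2 arm alone. Leaving out an array changed 1 gene each time, PMCH or SERPINE2. The unstated normalization, 1 cell line and 4 arrays that may not be separate cultures limit every level.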

Other observations

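The following genes were picked after their values were seen. SSX1, a cancer-testis gene of the X chromosome that is normally silent outside the testis, had 3472 and 3353 in the JAK3 arm and 3164 and 2958 in the EZH2 arm, which put it at percentile 99.7 of all genes. It stayed between percentiles 99.5 and 99.7 on the other 13 arrays. Of 4 measured SSX genes it alone was high, and the others went down to percentile 18.7; these genes are near-identical copies, so that the source of the signal within the family is uncertain. None of 5 measured MAGEA genes was high and 3 were dim, and PRAME was moderate at percentile 69.5.

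Some of the brightest genes encode parts of the cytoskeleton, enzymes or secreted proteins. VIM, which encodes vimentin, had 4367 and 4361 in the JAK3 arm and 2850 and 3288 in the EZH2 arm (percentile 99.8), S100A10 was at percentile 99.7, LCP1, the actin bundler of white blood cells, at percentile 99.6 and the protease inhibitor gene TIMP1 at percentile 99.7. ALOX5AP, which leukotriene synthesis needs, had 3719 and 3493 in the JAK3 arm and 2045 and 1431 in the EZH2 arm (percentile 99.5), and the arms did not overlap. ODC1, the first enzyme of polyamine synthesis, had 2884 and 2923 in the JAK3 arm and 3043 and 3026 in the EZH2 arm (percentile 99.6). Of telomerase, the RNA gene TERC was high at percentile 90.8 and TERT, the catalytic subunit, moderate at percentile 64.1. TRBC1, the constant part of the T cell receptor beta chain, had 46.6 and 54.2 in the JAK3 arm and 51.48 and 48.74 in the EZH2 arm, close to the olfactory limit at percentile 34.0.

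By gene type, 26.4% of 16862 protein-coding genes, 42.3% of 175 small nucleolar RNA genes, 7.4% of 391 transcribed pseudogenes and 1.6% of 631 long noncoding RNA genes were high.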
